A study of Mus musculus with 6 samples.

Results

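The mRNAs of the nuclear-encoded subunits of respiratory complex I were followed in gastrocnemius (Gas) muscle of mice with and without miR-92b. The genes were chosen by symbol, as every row of the count table named Ndufa, Ndufb, Ndufc, Ndufs or Ndufv with a number, leaving out the assembly factors (Ndufaf). This rule found 40 of 34714 gene symbols, and no expression value was used to choose them. All 40 had enough counts to be tested.

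Total RNA was sequenced from untreated 8-week-old mice, 3 wild type (WT) and 3 miR-92b knockout (M92KO), with 1 library for each mouse. The M92KO mice were male global knockouts, lacking miR-92b in every tissue (miR-92b-/-, allele on a C57BL/6JGpt background, bought from a supplier). The WT mice were age-matched C57BL/6 animals, not described as littermates, so that colony and genotype cannot be told apart. Where the paper's methods describe these controls, their sex is not given. No other allele or agent is named for either group. The level of miR-92b itself was not analysed here, so the deletion was not checked in these samples.

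Complex I (NADH:ubiquinone oxidoreductase) takes electrons from NADH, passes them along iron-sulfur clusters to ubiquinone and pumps protons across the inner mitochondrial membrane. It is L-shaped, with a peripheral arm in the matrix, which holds the redox cofactors, and a membrane arm, which holds the proton pumps. Core subunits carry out catalysis, some of them encoded by the nucleus and others by mitochondrial DNA, and a larger number of accessory subunits are needed for assembly and stability. The mitochondrially encoded subunits were not analysed here. By known position, 36 of the 40 genes were placed in the complex, namely 7 core subunits of the peripheral arm, 9 accessory subunits of the peripheral arm, 9 accessory subunits of the proximal membrane arm and 11 of the distal membrane arm. The other 4 were Ndufa4 (a protein now assigned to complex IV), its paralogue Ndufa4l2, and Ndufb4b and Ndufb4c, copies of Ndufb4. Ndufab1, the acyl carrier protein that is also a complex I subunit, has a symbol outside the rule and was read as a comparison.

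The mature strands removed by the knockout are shown because their seeds (bases 2 to 8, in capitals) define the sites that could occur in the subunit mRNAs. They lie on chromosome 3 of GRCm38.p6 (RefSeq), minus strand, at chr3:89227126-89227147 for the 3p strand and chr3:89227165-89227188 for the 5p strand.
miR-92b-3p: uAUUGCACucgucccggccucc
miR-92b-5p: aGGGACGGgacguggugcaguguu

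Matches of 7 or 8 bases to these seeds were rare in the subunit mRNAs. Of 37 members whose annotated 3′-UTR reached 20 bases, 1 had a match to miR-92b-3p, against 14.5% of 13664 tested genes, and 1 had a match to miR-92b-5p, against 5.93% of those genes. The subunit 3′-UTRs were short, with a median longest 3′-UTR of 197 bases against 1188 bases over the tested genes, and this length was not taken into account in the shares. The matches lay in Ndufa5 (peripheral arm) and Ndufs4, a peripheral arm subunit whose loss causes a Leigh-like disease in mice. Both sites are shown with the matched letters in capitals, read on the minus strand of GRCm38, at chr6:24518684-24518690 in the 57-base 3′-UTR of Ndufa5 and at chr13:114288235-114288242 in the 968-base 3′-UTR of Ndufs4.
Ndufa5, match to miR-92b-3p: ggaattaaatGTGCAATtaaatgctct
Ndufs4, match to miR-92b-5p: ccgttcttccCCGTCCCAtgctcccaaa

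These genes were singled out for their sequence, after values had been seen. Ndufa5 stood at 189, 202 and 179.7 CPM (counts scaled to the library size, with TMM factors) in WT and at 218, 187 and 207 CPM in M92KO. Ndufs4 stood at 239.7, 241 and 227 CPM in WT and at 239.0, 238 and 248 CPM in M92KO. The groups overlapped for both genes, and the fitted log2 fold changes of M92KO over WT were 0.10 ± 0.081 (SE) for Ndufa5 and 0.04 ± 0.063 for Ndufs4 (edgeR adjusted p = 0.675 and 0.870). Thus the members with a seed match lay inside the range of those without one.

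The libraries held 38246649 to 48209846 counts in WT and 33160508 to 37019640 in M92KO, and the largest M92KO library was smaller than the smallest WT library. The floor for detection, 3 counts, corresponds to 0.0629 to 0.0916 CPM, and the members had at least 374 counts in every library (such limits cover counting error only). Over all 15788 genes tested, edgeR's quasi-likelihood test called 0 at an adjusted p under 0.05 and 1955 at an unadjusted p under 0.05, and DESeq2 called 322 of 13335 at an adjusted p under 0.05 (2.41%), none of them a complex I subunit. M92KO replicate 1 stood apart, since leaving it out raised the edgeR count at an adjusted p under 0.05 from 0 to 401. The skeletal muscle markers were all present, with 122356 to 135131 summed CPM in WT and 123251 to 132997 in M92KO. Of 8 fibroblast markers, all 8 had a negative log2 fold change (3 with an unadjusted p under 0.05, background 6.92% lower). Their summed level of 1771 to 2336 CPM in WT did not overlap the 1200 to 1653 CPM in M92KO. The other marker lists (slow and oxidative fibre, red cell, fat cell, endothelial and macrophage) overlapped between groups in summed level. Mb and Fabp4 outweighed the rest of their lists in those sums. All 5 tested red cell and all 6 tested fat cell markers were above 0 (medians 0.66 and 0.73, background 50.0% above 0). None of them had an unadjusted p under 0.05. Of 10 slow and oxidative fibre markers 5 were above 0 and 5 below, the highest being Myh2 at 0.70 ± 0.24 (edgeR adjusted p = 0.314). Endothelial and macrophage markers each had 2 above 0 and 6 below. The part of fibroblast RNA, of other cell types or of fibre type in the values below was not tested. Fewer cells of a type cannot be told apart from less RNA per cell.

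In Gas muscle, the complex I subunit mRNAs were abundant and close to equal between M92KO and WT mice. None of the 40 passed an adjusted p of 0.05 (edgeR, background 0% of all tested genes), and the smallest adjusted p was 0.394, for Ndufa1. At an unadjusted p under 0.05, 1 member (Ndufa1) was higher in M92KO, where the background was 5.47% of tested genes, and 0 were lower, where it was 6.92%. The fitted log2 fold changes ran from -0.03 (Ndufs1) to 0.16 (Ndufb4b) with a median of 0.04, against a median of 0.00 over all tested genes. For 39 of the 40 members the 95% interval lay within 0.32 of 0 on the log2 scale, which was the case for 33.7% of all tested genes. The exception was Ndufb4b, with an upper bound of 0.36. The same held for 39 of 41 nuclear subunits of complexes II to V, so narrow intervals were not particular to complex I. The tested genes include many of lower count, and the share was not matched for level. The SE of these log2 fold changes was 0.063 to 0.12.

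**Figure D1:**
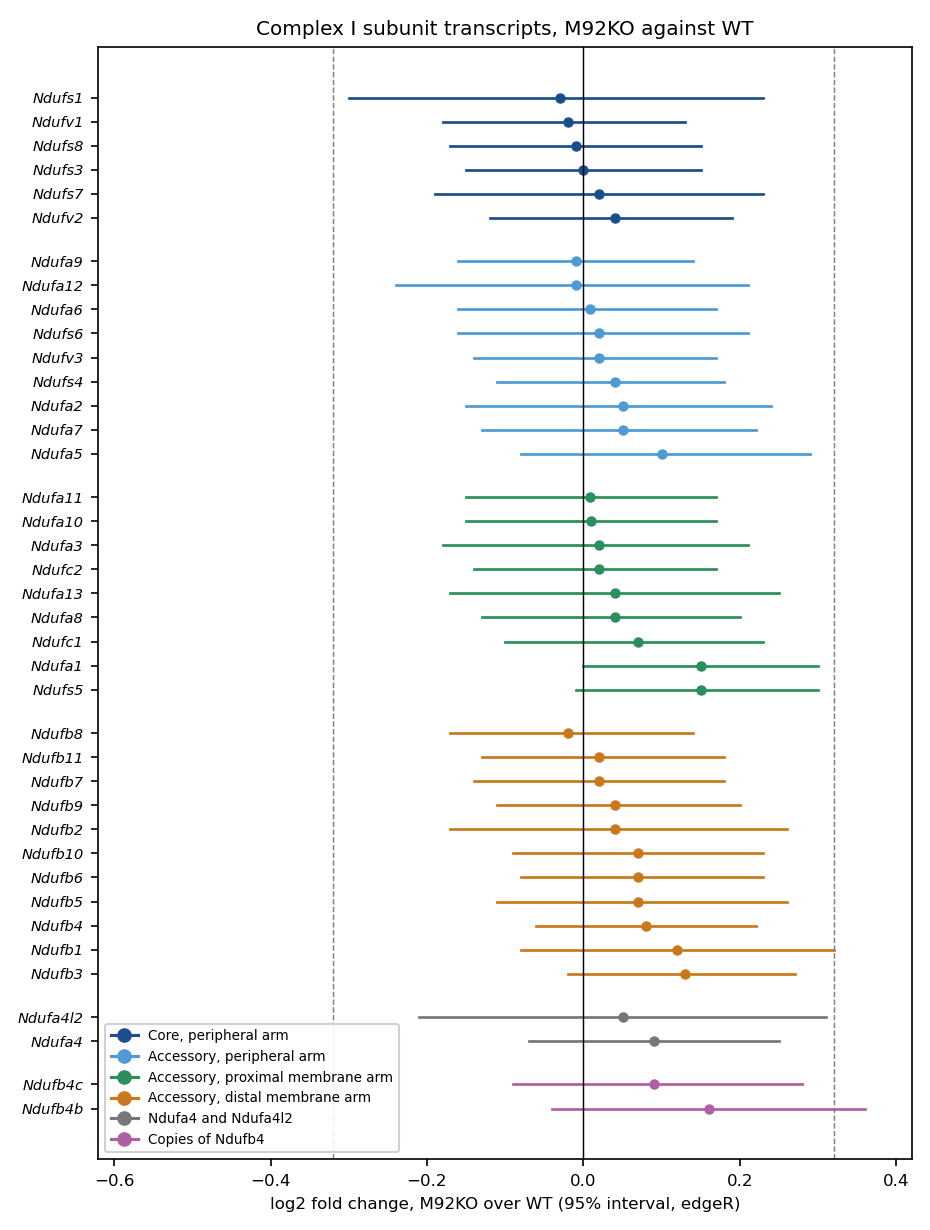
Fitted log2 fold change of M92KO over WT (x axis) for 39 of the 40 genes, with its 95% interval from edgeR, coloured by position in the complex; 3 mice in each group. The dashed lines lie at 0.32 on either side of 0, and 38 of the 39 intervals shown lie between them, with Ndufb4b reaching 0.36.

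Summed over the 40 genes, the level was 10044, 10128 and 9839 CPM in WT and 10375, 9829 and 10484 CPM in M92KO. One M92KO library was thus below all WT libraries and the other 2 were above them. The means were 10004 ± 149 CPM and 10229 ± 351 CPM (SD, n = 3 each), a difference of 2.25% that was smaller than the SD of the M92KO group. These mRNAs made up 0.971% to 1.04% of all counts in a library.

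Of the 40 genes, 34 had a log2 fold change above 0 and 6 below (background 50.0% above 0), but this lean depended on the processing. With the quantile normalization of the study's methods 20 were above 0, where the background over the same tested genes was 51.9%. After a correction for GC content and transcript length only 14 were above 0 (background 50.7%), and the median moved from 0.04 to -0.023. Genes without an annotated length were left uncorrected, and 14749 of the 15788 tested genes had one. Ndufb4b had none, stayed at 0.16 and is counted among the 14. Ndufb1 was corrected with the length and GC content of a noncoding transcript model. CPM of total counts, without TMM, left 22 above 0 (background 42.1%), but that scaling lowered all genes together: the median was 0.007 over the members and -0.032 over all tested genes, so the members stood about as far above the other genes as with TMM. No direction is therefore given for the subunits as a group.

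The transcripts of the subunits were short, with a median of 763 bases against 2890 bases over the tested genes with an annotated length. Within the 39 members with a length, shorter transcripts had the higher log2 fold changes (Spearman's rho = -0.41, Pearson's r = -0.45 on log2 length, across genes, which share the same 6 libraries). The same relation over 14749 tested genes was weaker, at rho = -0.18. After the GC and length correction rho with length over the members was 0.03. The correction was fitted to length in these same libraries, so a weaker relation with length was built in. With GC content, rho over the members went from -0.24 before the correction to -0.40 after it.

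**Figure D2:**
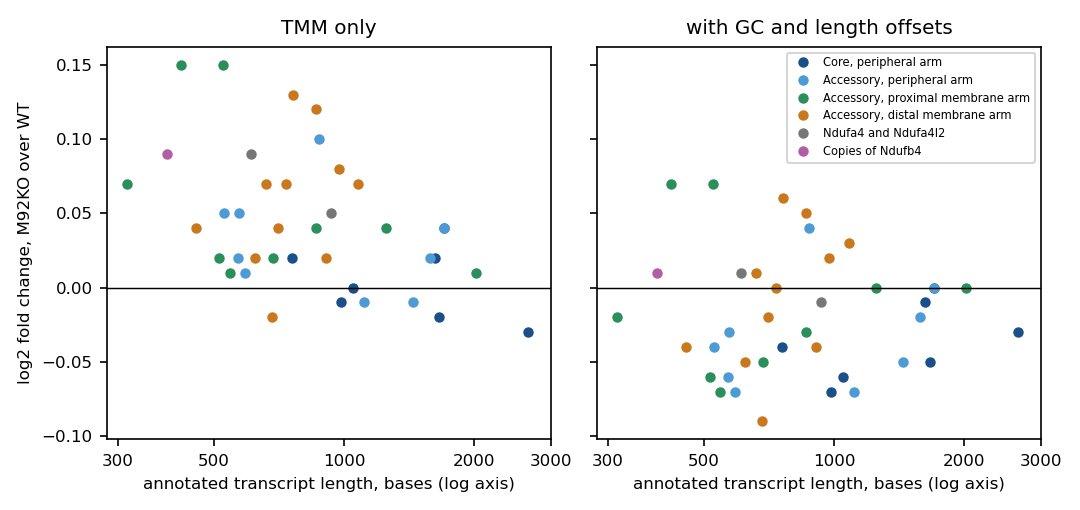
Log2 fold change of M92KO over WT (y axis) against annotated transcript length in bases (log axis) for 39 members, with TMM alone (left) and with GC and length offsets (right). The downward slope on the left (rho = -0.41) is gone on the right (rho = 0.03), where most genes lie below 0. The offsets were fitted to length in these same libraries, so a weaker slope was built in.

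The 7 core subunits of the peripheral arm, which bind NADH and carry the electrons to ubiquinone, had a median log2 fold change of 0.00, with 4 above 0 and 3 below, and for none did the groups separate. The GC and length correction brought this to a median of -0.043 with 1 of 7 above 0. Summed, they stood at 3255 ± 48.9 CPM in WT and 3261 ± 119 CPM in M92KO (SD, n = 3), a difference of 0.188%. Ndufv2, an iron-sulfur subunit next to the NADH site and the core gene of smallest p, was at 377, 395 and 374 CPM in WT and at 398, 374 and 403 CPM in M92KO. The groups overlapped, with a log2 fold change of 0.04 ± 0.067 and an adjusted p of 0.874 (edgeR). Ndufs3, a structural core subunit, was at 0.000 ± 0.068 on the log2 scale, with an interval of -0.15 to 0.15. Of the 50-base words of its transcript 35.8% also occur in other annotated genes, so that its count is uncertain. Ndufv1, which holds the flavin that accepts the electrons from NADH, was at -0.02. Ndufs7 and Ndufs8, which carry iron-sulfur clusters, were at 0.02 and -0.01.

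Ndufs1, the largest subunit and the lowest of the 40 by log2 fold change, was the least even across libraries. It stood at 677, 703.5 and 641 CPM in WT and at 539.7, 708 and 731 CPM in M92KO. A single library, M92KO replicate 1, was below all WT values, and the other M92KO libraries were above them. The log2 fold change was -0.03 ± 0.12 (interval -0.30 to 0.23; edgeR adjusted p = 0.945), and without M92KO replicate 1 it was 0.09. The chosen Ndufs1 transcript model had 2661 bases, the greatest length among the members, and its exons overlap Eef1b2 and Ino80dos on the opposite strand.

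The 9 accessory subunits of the peripheral arm had a median of 0.02, with 7 above 0 and 2 below and none without overlap, and the GC and length correction brought this to -0.036 with 2 above 0. They summed to 1607 ± 19 CPM in WT and 1633 ± 70.6 CPM in M92KO. Their log2 fold changes ran from -0.01, for Ndufa9 and Ndufa12, to 0.10, for Ndufa5, and no adjusted p in this group was below the 0.675 of Ndufa5 (edgeR). Ndufa6, Ndufa7, Ndufa2, Ndufs6 and Ndufv3 lay between 0.008 and 0.05. Ndufa9, an NADPH-binding subunit, was the most even of the 40 genes, with a coefficient of variation (CV) of 2.18% over the 6 libraries.

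The 9 accessory subunits of the proximal membrane arm all had log2 fold changes above 0, with a median of 0.04, a count that the GC and length correction brought down to 2 of 9. Both of the most changed genes with an annotated position, Ndufa1 and Ndufs5, belong here. Ndufa1, a small X-linked subunit with a single membrane span, was at 98.7, 94.6 and 93.8 CPM in WT and at 111, 102.5 and 105 CPM in M92KO. All 3 M92KO values were above all 3 WT values. The log2 fold change was 0.15 ± 0.065 (11.0% higher), with an edgeR adjusted p of 0.394 and a two-sided exact permutation p of 0.1, the smallest that 3 against 3 can give. Ndufs5, which faces the intermembrane space, was at 116, 116 and 113 CPM in WT and at 132, 118.5 and 131 CPM in M92KO, again without overlap. Its log2 fold change was 0.15 ± 0.068 (10.6% higher; edgeR adjusted p = 0.435). With the GC and length correction both fell to 0.07, and 41.2% of the 50-base words of the Ndufs5 transcript also occur in another annotated gene, BC002163, so that its count is uncertain.

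The other genes of the proximal membrane arm, Ndufa3, Ndufa8, Ndufa10, Ndufa11, Ndufa13, Ndufc1 and Ndufc2, had log2 fold changes of 0.008 to 0.07, and in each of them the groups overlapped. Ndufa13, also known as GRIM-19, showed the widest spread in this arm among the knockout mice, with 326, 257 and 290.3 CPM in M92KO replicates 1 to 3 against 287, 278 and 283 CPM in WT. M92KO replicate 1 was above and replicate 2 below every WT library.

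The 11 accessory subunits of the distal membrane arm had the highest median of the 4 positions, 0.07, with 10 above 0 and 1 (Ndufb8) below, and the GC and length correction brought this to a median of 0.002 with 6 above 0. They summed to 2737 ± 63.8 CPM in WT and 2831 ± 86.2 CPM in M92KO, a difference of 3.44%. Ndufb3, a single-span subunit, was at 119, 117.5 and 113 CPM in WT and at 129, 121 and 130.1 CPM in M92KO. The groups did not overlap, with a log2 fold change of 0.13 ± 0.064 (edgeR adjusted p = 0.481). Ndufb4 also did not overlap, with 139, 142 and 144 CPM in WT and 156, 146 and 146 CPM in M92KO, at 0.08 ± 0.063. Ndufb1 was at 95.1, 87.2 and 87.4 CPM in WT and at 103, 86.7 and 103 CPM in M92KO. One M92KO library of Ndufb1 lay below all WT libraries, and the log2 fold change was 0.12 ± 0.086 (edgeR adjusted p = 0.633). Ndufb2, Ndufb5, Ndufb6, Ndufb7, Ndufb8, Ndufb9, Ndufb10 and Ndufb11 overlapped between groups and ran from -0.02 to 0.07.

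In all, 4 members (Ndufa1, Ndufs5, Ndufb3 and Ndufb4) were higher in every M92KO than in every WT library, where the background was 8.77% of tested genes, and 0 were lower, where it was 9.58%. With CPM of total counts 0 members separated in either direction (background 6.19% higher and 11.9% lower), with all genes lowered as given above. That scaling was tried only once the values were known.

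The copies of Ndufb4 were the lowest in count after Ndufa4l2. Ndufb4b was at 26.1, 27.2 and 22.7 CPM in WT and at 29.5, 28.3 and 26.8 CPM in M92KO. These ranges overlapped, and its log2 fold change of 0.16 ± 0.088 was the highest of the 40 (edgeR adjusted p = 0.527). Leaving out WT replicate 3, its lowest library, brought it to 0.08. Ndufb4c, annotated as a processed pseudogene on chromosome 15, was at 0.09 ± 0.081. All of its 50-base words also occur in other annotated genes, mostly Ndufb4, so that the counts of Ndufb4 and its copies cannot be told apart with certainty.

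Ndufa4, the gene now assigned to cytochrome c oxidase, was at 682.5, 617 and 639 CPM in WT and at 701, 681 and 679 CPM in M92KO. The lower M92KO values fell inside the WT range, and the log2 fold change was 0.09 ± 0.071 (edgeR adjusted p = 0.672). Ndufa4l2, known as a hypoxia-induced paralogue, was far lower, at 13.5, 12.4 and 12.1 CPM in WT and 14.8, 11.4 and 13.0 CPM in M92KO. The M92KO values spanned the WT range on both sides, and its log2 fold change was 0.05 ± 0.11, with an interval of -0.21 to 0.31. Ndufab1 was at 183, 185 and 178 CPM in WT and at 177.5, 192 and 198 CPM in M92KO, and its log2 fold change was 0.06 ± 0.067 (edgeR adjusted p = 0.789).

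For most subunit mRNAs the knockout animals differed more from each other than the WT animals did. M92KO replicate 1 held the highest of the 6 values for 22 of the 40 genes, and M92KO replicate 2 held the lowest for 22. Replicate 1 exceeded replicate 2 in 37 of 40 genes, by a median of 0.13 on the log2 scale, and replicate 3 exceeded replicate 2 in 35. In WT the corresponding medians were 0.01 to 0.04 in size. For 23 of 40 genes at least 1 M92KO library lay above and at least 1 below the whole WT range. For these counts the share over all tested genes was not computed. They therefore describe the libraries and are not read as a trait of the subunits. The SD was larger in M92KO than in WT for 31 of 40 members, and for 66.4% of all tested genes. In M92KO replicate 1, the deviation from the mean of the gene went with transcript length (rho = -0.53 over 39 members), with short transcripts high and Ndufs1 lowest at -0.30, while in the other 5 libraries rho was between -0.06 and 0.31.

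**Figure D3:**
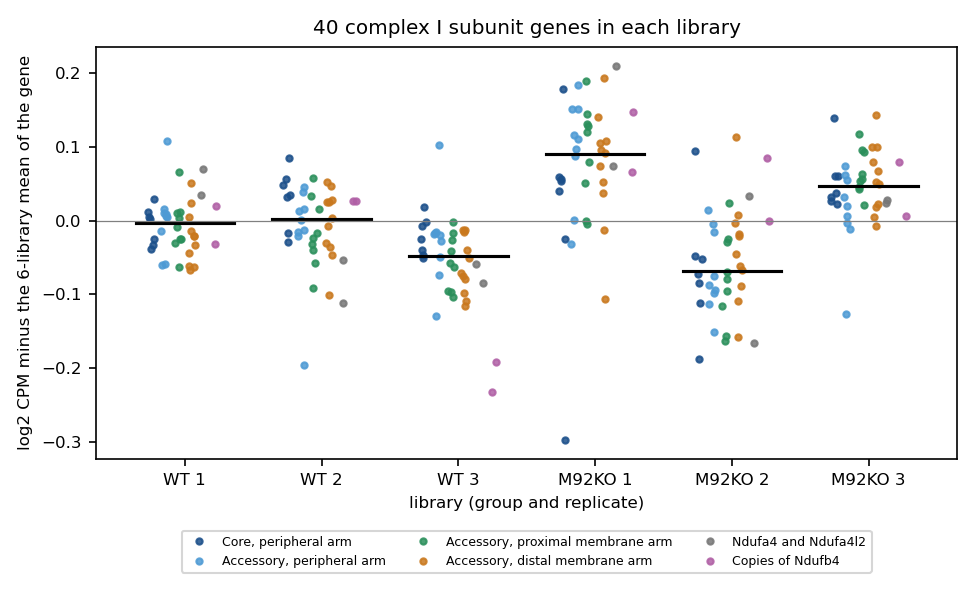
Log2 CPM of each of the 40 genes minus its mean over all 6 libraries (y axis), by library (x axis), coloured by position in the complex; black lines are medians over the 40 genes. The median is 0.090 in M92KO 1 and -0.068 in M92KO 2, and the single low point in M92KO 1 is Ndufs1 at -0.30.

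The size of the lean depended on which knockout mouse was included. Without M92KO replicate 1 the median over the members was 0.010 and 23 of 40 were above 0 (background 47.8%), and without M92KO replicate 2 it was 0.092 and 37 of 40 were above 0 (background 50.0%). The number of members whose groups did not overlap rose from 4 to 19 without M92KO replicate 2 (background 28.8% of tested genes, either direction), and at an unadjusted p under 0.05 it rose from 1 to 3, all higher in M92KO (background 4.38%). In no such fit did a member pass an adjusted p of 0.05.

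Across the 6 libraries the subunits were among the even genes, although no test was made of that. The median CV was 4.92% over the members and 11.7% over all tested genes. The members had at least 374 counts in every library, while the tested genes reach down to the filter on low counts. These CVs were not matched for level, so evenness is not read as a trait of complex I. The highest library exceeded the lowest by a median factor of 1.16, and at most by 1.35, for Ndufs1, which also had the highest CV, 10.4%. Ndufa12, in the peripheral arm, also varied within WT, with 163, 132 and 162 CPM, and 26.2% of its 50-base words occur in another annotated gene, Gm15920.

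Levels were compared between genes as CPM per kilobase of the chosen transcript, for the 38 genes with a length, leaving out the Ndufb4 copies. In WT the median gene stood at 225.5 CPM per kilobase, and 29 genes lay within 2-fold of it. Among genes placed in complex I, the highest was Ndufb9, in the distal membrane arm, at 789.7 ± 24.1, followed by Ndufb8, in the same arm, at 661 ± 17.6 CPM per kilobase (SD, n = 3). The WT ranges of these genes did not overlap. Of the 50-base words of Ndufb9, 23.4% also occur in another annotated gene, Gm49356, so that its level is uncertain. The lowest was Ndufv3, a peripheral arm subunit, at 57.5 ± 0.468, which made a 13.7-fold range within the complex. The model chosen for Ndufv3 has 1582 bases and is 1 of 3 coding models. Its WT mean of 91.0 CPM, before division by length, was close to the 89.9 CPM of Ndufb1. The low rank of Ndufv3 and the 13.7-fold range thus rest on that length, and no other model was tried. Ndufa4 was higher than all the genes placed in complex I, at 1059 ± 54.9, and Ndufa4l2 lower than all, at 13.5 ± 0.781, a 78.3-fold range.

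The order of the genes was much the same in M92KO mice. Of 38 genes, 22 held the same rank, and the largest change was 4 ranks. In WT, 23 of 37 neighbours in the order had overlapping ranges, most of them in the crowded middle from Ndufa6 (323 ± 3.26) down to Ndufs6 (198 ± 3.07 CPM per kilobase), so that their order is not fixed by these data. The length used for Ndufb1 is that of a noncoding transcript model found through its synonym, and its level per kilobase is uncertain.

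**Figure D4:**
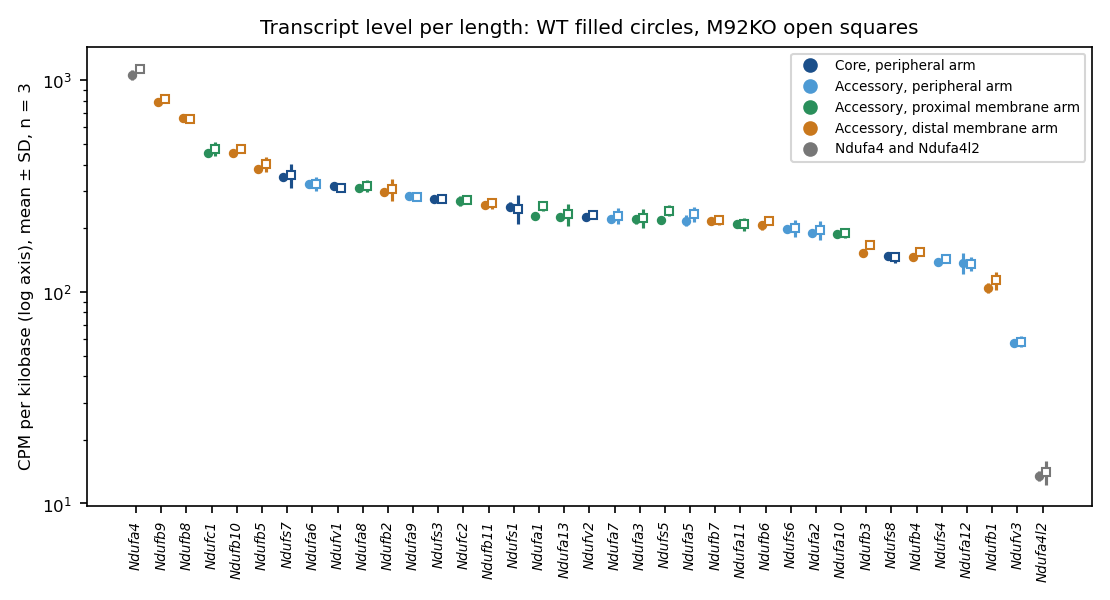
Level in CPM per kilobase of transcript (log axis) for 37 of the 38 genes, ordered by their WT mean; filled circles are WT and open squares M92KO, with SD over 3 mice. From Ndufa4 at 1059 to Ndufa4l2 at 13.5 in WT, the M92KO squares follow the WT circles with at most 4 places of change.

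The genes that build or accompany complex I gave similar values. Of 17 assembly factors tested, 1 was higher and 0 lower at an unadjusted p under 0.05 (background 5.47% higher and 6.92% lower). The groups did not overlap for 2, both higher in M92KO (background 8.77%). The median log2 fold change was 0.04, with 10 above 0 and 7 below (background 50.0% above 0). The factor of smallest p was Tmem70, which acts in the assembly of complex I and of ATP synthase, at 94.4, 101 and 99.9 CPM in WT and at 105, 109.7 and 115 CPM in M92KO (0.16 ± 0.066; edgeR adjusted p = 0.388). Tmem126a, the other one without overlap, was at 0.10 ± 0.061, while Ndufaf2, a paralogue of Ndufa12, was at 0.22 ± 0.12 and Ndufaf4 at 0.11 ± 0.070, both with overlap. The lowest, named after its value was seen, was Ndufaf6 at -0.14 ± 0.088, also with overlap.

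Of 41 nuclear subunits of complexes II to V, at an unadjusted p under 0.05 there was 1 in the higher direction and 0 in the lower, 6 did not overlap and were higher in M92KO (background 5.47% at that p and 8.77% without overlap, higher). The median was 0.04, with 30 above 0 and 11 below (background 50.0% above 0). For this list and the assembly factors the lean was not read under the other normalizations, so no direction is given for them. The gene of smallest p was Cox6a2, the muscle form of a cytochrome c oxidase subunit, at 539.7, 529 and 521 CPM in WT and at 675, 569 and 594 CPM in M92KO (0.21 ± 0.082; edgeR adjusted p = 0.361). The ATP synthase genes Atp5l and Atp5j were both at 0.12, and Cox6b1 was at 0.09. The lowest, named after its value was seen, was Sdha, the flavoprotein of complex II, at -0.09 ± 0.11. Summed, complexes II to V differed by 0.215% between groups.

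Of 16 regulators of mitochondrial gene expression, 0 were higher and 1 was lower at an unadjusted p under 0.05 (background 5.47% higher and 6.92% lower). The groups did not overlap for 2, both lower in M92KO (background 9.58%), and the median was 0.02. The gene lower at that p was Pprc1, a coactivator of the PGC-1 family, at 27.0, 24.1 and 24.5 CPM in WT and at 19.2, 19.1 and 19.9 CPM in M92KO. It did not overlap, and its log2 fold change was -0.37 ± 0.078, which did not pass after adjustment (edgeR adjusted p = 0.179). Gabpa, an ETS factor known to bind promoters of respiratory chain genes, was also without overlap, at -0.09 ± 0.063. Tfb1m, a mitochondrial rRNA methyltransferase, was at 0.18 ± 0.13. Ppargc1a, the coactivator PGC-1alpha, was at 73.3, 75.7 and 63.7 CPM in WT and 63.8, 85.3 and 89.98 CPM in M92KO, with overlap.

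**Figure D5:**
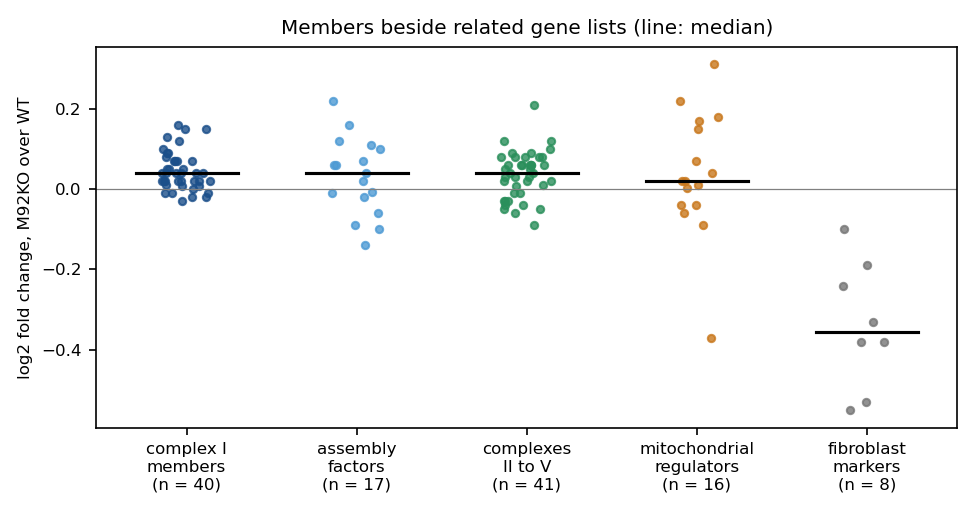
Log2 fold change of M92KO over WT (y axis) for the complex I members and for related gene lists, 1 point for each gene, with the median as a line. With TMM alone, the members, assembly factors and complexes II to V share a median of 0.04, and all 8 fibroblast markers lie below 0.

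Promoters were read because nuclear respiratory genes are known to share binding motifs. RefSeq promoter windows (250 bases before to 50 after the start, GRCm38.p6) were found for 34 of the 40 genes and searched on both strands. The NRF1 palindrome, GCGCA followed by its reverse complement TGCGC, occurred in 1 member (2.94%, against 1.07% of 27025 promoters and 1.95% of those of tested genes). The letters AAGGTCA, bound by estrogen-related receptors (ERR), occurred in 3 (8.82%, against 5.38% and 4.11%), and the ETS letters CCGGAAG in 4 (11.8%, against 9.93% and 17.5%). The letters AAGATGG, bound by YY1, occurred in 7 (20.6%, against 7.28% and 7.97%). All 7 of these lay on the gene's own strand, starting 22 to 38 bases after the start of the gene, and the letters hold an ATG. A match describes only the letters in these windows.

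The NRF1 and ERR windows are printed with the motif in capitals, on the strand of the gene. They lie at chr17:56717692-56717721 (plus strand) for Ndufa11, chr4:123718398-123718424 (minus) for Ndufs5, where the letters stand as their reverse complement, chr6:39592374-39592400 (plus) for Ndufb2 and chr16:37654407-37654433 (minus) for Ndufb4.
Ndufa11, NRF1: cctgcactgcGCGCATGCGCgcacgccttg
Ndufs5, ERR: ttctcgagtgTGACCTTgctcaagtag
Ndufb2, ERR: gagcagcagtAAGGTCAgccaagagca
Ndufb4, ERR: cctgagcctgAAGGTCAgactcgagag

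Of the genes with the ERR letters, Ndufs5 and Ndufb4 were higher in M92KO without overlap (background 8.77% of tested genes), and Ndufb2 overlapped, at 0.04 ± 0.094. Ndufs5 and Ndufb4 did not separate with CPM of total counts, and a link between letters and levels was not tested. Ndufa11, with the NRF1 letters, was at 0.008 ± 0.071. The transcript of the receptor ERR-alpha, Esrra, was at 0.04, that of Nrf1 at -0.06 and that of Yy1 at 0.002 on the log2 fold change scale. Counting of strands was not given in the sources used here, and 17 of the 40 genes have exons that overlap another gene, 15 of them on the opposite strand, so reads of those partners cannot be told apart from the subunit's own. In 7 members, Ndufb2 (24.4%) among them, over 20% of the 50-base words also occur in other annotated genes.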

How the data were processed

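The authors deposited unnormalized read counts for 34714 gene symbols in 6 libraries of Gas muscle, 1 for each mouse. The labels name a SMARTer kit and the builds GRCm38 and mm10, while aligner, counting program and strandedness are not given in the sources used here. The supplementary methods used quantile normalization, log2(x + 1) and limma, which was run as an alternative.

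Counts were filtered with filterByExpr (minimum count 10, minimum total count 15), scaled by TMM and tested with edgeR 4.0.16 (glmQLFit, glmQLFTest; R 4.3.3) over 15788 genes, with Benjamini-Hochberg adjustment over all of them. CPM values use TMM-scaled library sizes, and fold changes are on the log2 scale with SE and 95% intervals. Exact permutation tests were two-sided. DESeq2 1.42.0 and limma 3.58.1 were alternatives, as were offsets for GC content and transcript length (lowess, span 0.3), and the test was checked on simulated data. Nothing beyond the labels says that mice were independent litters, so p-values measure only the spread between these samples.

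Positions, lengths and 3′-UTRs came from GENCODE M21 (GRCm38), which matched 39 of the 40 members (Ndufb4b had none), with 25731 symbols matched directly and 419 by a RefSeq synonym. The members and lists were chosen with earlier results of these data known. Values by library are given for the member with an unadjusted p under 0.05, the 5 members of smallest p, the lowest and highest log2 fold change, Ndufa4, Ndufa4l2, Ndufab1, the core subunit of smallest p and up to 4 genes of each related list. Ndufa5, Ndufs4, Ndufa13, Ndufb4 and Ndufa12 were singled out after values were seen. Of the 40 members, 1 was counted in every summary but is not reported singly here. No table columns of other samples were present.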

Additional observations from a re-analysis of the deposited data

How the results depend on the processing

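Under every alternative, 0 members passed an adjusted p of 0.05 (edgeR, DESeq2 or limma) and 0 were lower in M92KO at an unadjusted p under 0.05. The single member past an unadjusted p of 0.05 was not called (0 members) with DESeq2's Wald test, without a filter on low counts, with the quantile method and limma, with GC and length offsets, with the replicate block or with offsets and block together. Leaving out 1 library at a time gave 0 to 3 such members, 4 to 19 members without overlap between groups (19 without M92KO replicate 2, 9 without WT replicate 2, where 28.8% and 24.9% of all tested genes did not overlap, and 24.9% to 37.3% over the 6 such fits) and a median log2 fold change of 0.010 to 0.092. With CPM of total counts, an alternative chosen after seeing the data, 0 members were without overlap. The median over the members was 0.001 with the quantile method and -0.023 with GC and length offsets, against 0.036, and 0.029 for the 36 genes placed in complex I.

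Of all 40 members, 34 were above 0, against 14 with GC and length offsets and 20 with the quantile method, so that many small values changed sign. For the 10 genes followed singly under each alternative (Ndufa1, Ndufs5, Ndufb3, Ndufb4b, Ndufb1, Ndufs1, Ndufa4, Ndufa4l2, Ndufv2 and Ndufab1), the log2 fold change turned direction in 6 cases. Ndufa4l2 went to -0.01 with GC and length offsets, to -0.010 with offsets and block, and to -0.05 without M92KO replicate 1. Ndufs1 went to 0.09 without M92KO replicate 1 and to 0.001 without WT replicate 2, and Ndufv2 to -0.005 with the quantile method. Leaving out 1 library at a time, Ndufs1 ranged from -0.11 to 0.09 and Ndufa4l2 from -0.05 to 0.14. The cause was not tested. The other 134 values of these 10 genes kept their direction and, as in the main fit, an adjusted p above 0.05. The call of Ndufa1 at an unadjusted p under 0.05 was less stable, as given above.

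Same-numbered WT and M92KO libraries hardly deviated together (r = 0.081, 0.038 and 0.015 across genes). For libraries of different number r ran from -0.069 to 0.036. Deviations about the mean of 3 libraries are tied to each other, so these values cannot exclude a pairing. The main fit used none, and a replicate block was run as an alternative. The replicate block left 1691 genes at an unadjusted p under 0.05 in place of 1955, with a member median of 0.035 and a smallest member adjusted p of 0.537 (edgeR). Groups of 3 were too small for a search for outlying samples.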
